A study of Sus scrofa with 6 samples.

Results

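The genes described here are an interferon-stimulated and antigen presentation module, measured by RNA sequencing in pig prefrontal cortex. The module was given as a list of 47 gene symbols, and a gene was taken as a member where the deposited count tables hold a row under exactly that symbol. This gave 44 members of 17201 genes listed. No row was matched for XAF1 and SP100, and IFIT5 was matched only through a RefSeq synonym, so it is given apart from the counts below. OASL was too low to be tested, which left 43 tested members.

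The libraries came from 6 pigs (Sus scrofa) aged 3 months. Animals 391, 392 and 393 had received valproic acid (VPA), an anticonvulsant that inhibits histone deacetylases, during early gestation at 75 mg/kg. Animals 401, 402 and 408 were controls that the labels describe as having no treatment. The series is about a pig model of autism, and its single comparison is VPA against control cortex. The labels give no litter, sex or breed, so animals of a group may share a litter, and the p-values measure only the spread between these animals.

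Interferons are secreted when a cell senses foreign nucleic acid, and they signal through surface receptors and the JAK kinases to transcription factors that include STAT2 and IRF9. These switch on a large set of antiviral genes, the interferon-stimulated genes. Interferon signalling also raises the machinery that cuts proteins into peptides and loads them on major histocompatibility complex (MHC) class I molecules for display to T cells. In brain, microglia, astrocytes, endothelial cells and neurons can all express these genes, and a low level is present without infection.

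Totals were 16285517 to 17989032 counts per library, and levels are given as CPM, the count scaled to the total of its library, of which 1 stood for 16.3 to 17.99 reads. Neuron markers summed to 5616 to 6228 CPM over 5 genes and choroid plexus markers to 62.0 to 78.7 CPM over 5 genes, so neuronal RNA was present in each library. Of the 4 choroid plexus markers tested, TTR was called (adjusted p = 0.041 in edgeR, the term being defined below). It had 4.42, 4.85 and 9.84 CPM in VPA and 0.611, 1.42 and 1.19 CPM in controls. The other 3 had negative log2 fold changes, -0.41 for KL, -0.21 for AQP1 and -0.06 for FOLR1. KL had every VPA library below every control, a pattern found in 9.07% of all genes. The part of choroid plexus RNA in the values of the members was not tested. A gene is termed called where its Benjamini-Hochberg adjusted p, over all 14373 genes tested with edgeR's quasi-likelihood test, was under 0.05, which 52 genes (0.362%) were. In bulk tissue, fewer cells of a type and less RNA per cell cannot be told apart.

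No member was called between VPA and control cortex, and the members varied widely between animals of 1 group. Of the 43 tested members, 0 passed the threshold in edgeR, beside 0.362% of all genes. The lowest adjusted p-values were 0.067 for IFI6, 0.077 for MX1 and 0.11 for RSAD2. By limma-voom 0 members passed as well, beside 0.209% of all genes. DESeq2 with its defaults called IFI6 (adjusted p = 0.00013) and MX1 (adjusted p = 0.0078), beside 3.64% of all genes. These were 2 of the 38 members to which DESeq2 gave an adjusted p. With no filter on low counts edgeR called IFI6 (adjusted p = 0.037), 1 of 44 members, beside 0.82% of all genes. The adjusted p of IFI6 over all alternatives ran from 0.00013 to 0.17, and that of MX1 from 0.0078 to 0.25.

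Most members had a negative fold change, with the lowest p-values among the antiviral effectors. An unadjusted p under 0.05 was reached by 8 of 43 members (18.6%), beside 16.2% of all genes tested. All 8 were lower in VPA, where 7.47% of all genes were lower at that p and 8.69% higher. The number of members at that p was 4 without VPA 391, 4 without VPA 392 and 9 without VPA 393. It was 6 without control 401, 6 without control 402 and 10 without control 408. The number among all genes changed as well, from 2322 with every library kept. Without these libraries, in the same order, it was 1897, 1723, 2288, 2494, 2011 and 1819. Groups did not overlap for 4 members, each with every VPA library below every control (9.30%), which was near the 9.07% of all genes. No member had every VPA library above every control, a pattern found in 12.1% of all genes. A negative log2 fold change was found in 31 of 43 members (72.1%), beside 49.5% of all genes, and the median was -0.08 beside 0.0018. The members share their animals and vary together across them, so these counts are not independent observations. The list of members was also chosen with earlier results of these data known.

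**Figure D1:**
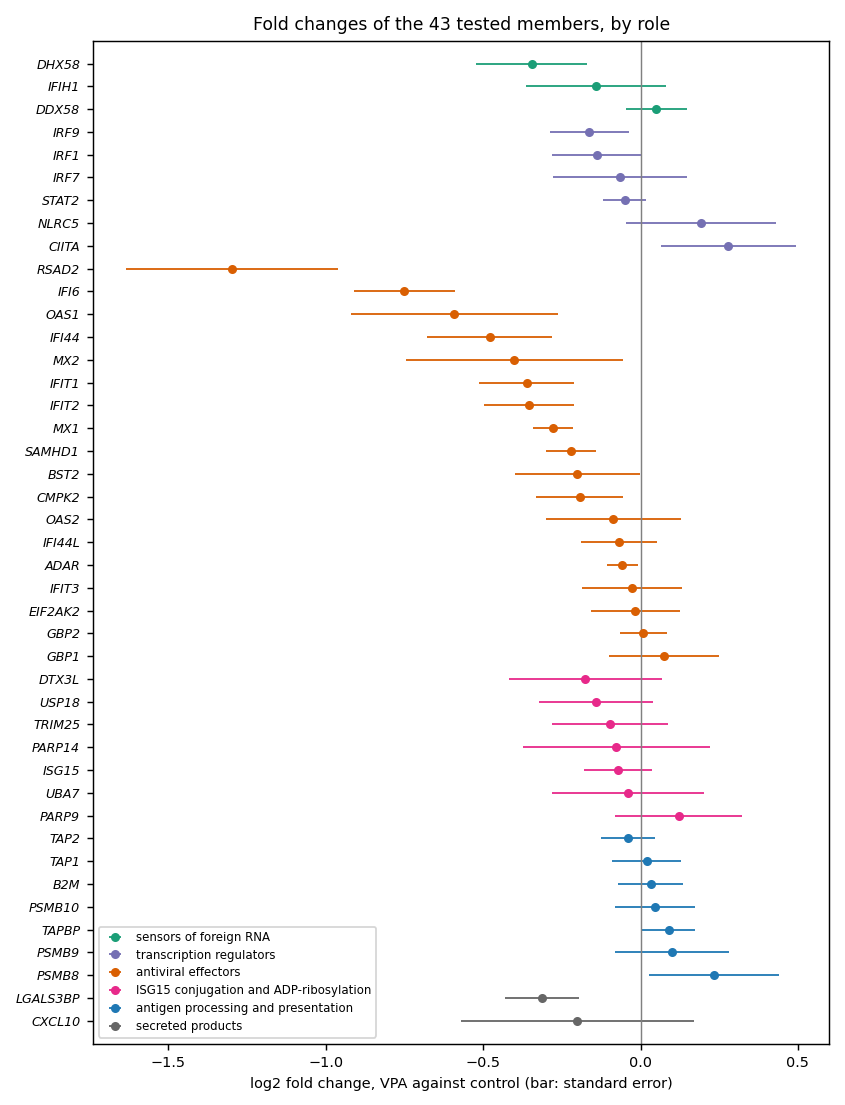
The log2 fold change of VPA against control (horizontal axis) is shown for each of the 43 tested members (vertical axis), with bars for the standard error and colours for the role. RSAD2 and IFI6 lie farthest from 0, at -1.30 and -0.75, and 6 of 7 antigen processing and presentation genes lie above 0.

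The level of the members was low to moderate, and set per length it followed no single role. FPKM, the count scaled to the length of the gene and to the library total, was used to compare genes with each other. MX1, a GTPase that blocks viral replication, had the highest mean of the members over the 6 libraries, 59.5 ± 6.95 FPKM (SD, n = 6). Next came B2M, the invariant light chain of MHC class I, at 51.3 ± 5.79 FPKM, and IFI6, an interferon-induced mitochondrial and endoplasmic reticulum protein, at 48.7 ± 16.03 FPKM. These SD hold both groups, and the order of the 3 genes differed between the groups. The means of MX1, B2M and IFI6 were 54.0, 52.1 and 36.5 FPKM in VPA and 65.0, 50.5 and 60.9 FPKM in controls. Differences between these genes were not tested. ISG15, the ubiquitin-like modifier, followed at 29.7 ± 2.55 FPKM and STAT2 at 22.2 ± 1.53 FPKM. A mean of at least 1 FPKM was reached by 38 of 44 members. The lowest means were those of OASL, at 0.168 ± 0.0798 FPKM, and of CIITA, the master regulator of MHC class II, at 0.261 ± 0.0397 FPKM. B2M has 2 entries in RefSeq's gene table for Sscrofa11.1. How reads were counted between them is not given, so the level of B2M is uncertain.

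Among the sensors of foreign RNA, 0 of 3 was called and the median log2 fold change was -0.14. DHX58 encodes LGP2, a helicase that modulates the other sensors. It had 4.13, 4.18 and 4.73 CPM in VPA 391, 392 and 393, and 5.95, 5.87 and 4.61 CPM in controls 401, 402 and 408. The groups overlapped only through control 408 and VPA 393 (log2 fold change -0.35 ± 0.18 SE, adjusted p = 0.37 in edgeR). IFIH1, the double-stranded RNA sensor MDA5, had 2.63, 3.25 and 4.11 CPM in VPA and 3.28, 3.91 and 3.75 CPM in controls, in the same animal order. Its highest and lowest values were both in VPA libraries. DDX58, the sensor RIG-I, was the most abundant of the sensors by FPKM (3.37 ± 0.299, n = 6) and had a log2 fold change of 0.05.

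Among the transcription regulators, 0 of 6 was called, 4 fold changes were negative and the median was -0.06. IRF9, a DNA-binding partner of STAT2, had 15.1, 13.6 and 16.3 CPM in VPA and 16.4, 19.3 and 14.4 CPM in controls. Control 402 was the highest library and control 408 was within the VPA range. CIITA had 3.05, 3.81 and 3.73 CPM in VPA and 3.06, 3.08 and 2.503 CPM in controls, with a log2 fold change of 0.28 ± 0.21 (adjusted p = 0.57 in edgeR). VPA 391 lay among the controls and the other VPA libraries above them. NLRC5, which drives MHC class I genes, had 5.68, 5.10 and 9.01 CPM in VPA and 5.56, 7.12 and 4.55 CPM in controls. VPA 393 alone stood above all controls, and without it the log2 fold change went from 0.19 to -0.10. STAT2 varied little, between 95.8 and 111 CPM over the 6 libraries. IRF1 and IRF7, factors that act on interferon and its target genes, had log2 fold changes of -0.14 and -0.06.

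The antiviral effectors, 18 of the 43 tested members, held 7 of the 8 members with an unadjusted p under 0.05. They also held all 4 members whose groups did not overlap. The 7 were 38.9% of the effectors, beside 7.47% of all genes lower at that p, and the 4 were 22.2% beside 9.07%. Of 18 tested, 0 was called and the median was -0.21. A negative fold change was found in 16 (88.9%), beside 49.5% of all genes. The effectors share their animals, so these counts are not independent observations. Their list was also chosen with earlier results of these data known. IFI6 had 21.9, 31.3 and 31.8 CPM in VPA 391, 392 and 393, and 51.4, 53.8 and 36.6 CPM in controls 401, 402 and 408. The nearest libraries of the groups were VPA 393 and control 408, and each group held 1 low animal. The means were 28.3 ± 5.54 and 47.3 ± 9.34 CPM (SD, n = 3 each), a log2 fold change of -0.75 ± 0.16 SE (adjusted p = 0.067 in edgeR).

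MX1 had 141, 133 and 148 CPM in VPA and 159, 182 and 166 CPM in controls. All VPA libraries lay below all controls, and the distance between VPA 393 and control 401 was smaller than the range of the controls (log2 fold change -0.28 ± 0.063, adjusted p = 0.077 in edgeR). RSAD2 encodes viperin, which makes a chain-terminating nucleotide against viral polymerases. It had 0.897, 1.47 and 2.06 CPM in VPA and 3.61, 4.69 and 2.56 CPM in controls. The lowest control was again 408 and the highest VPA library 393. The log2 fold change was the largest in size of the members, -1.30 ± 0.34 (adjusted p = 0.11 in edgeR), at counts of 15 to 79 reads. SAMHD1, an enzyme that depletes the nucleotides viruses need for DNA synthesis, had 21.6, 22.8 and 24.5 CPM in VPA and 26.3, 26.8 and 26.4 CPM in controls. The controls lay within 1 CPM of each other, and the log2 fold change was -0.22 ± 0.079 (adjusted p = 0.21 in edgeR).

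**Figure D2:**
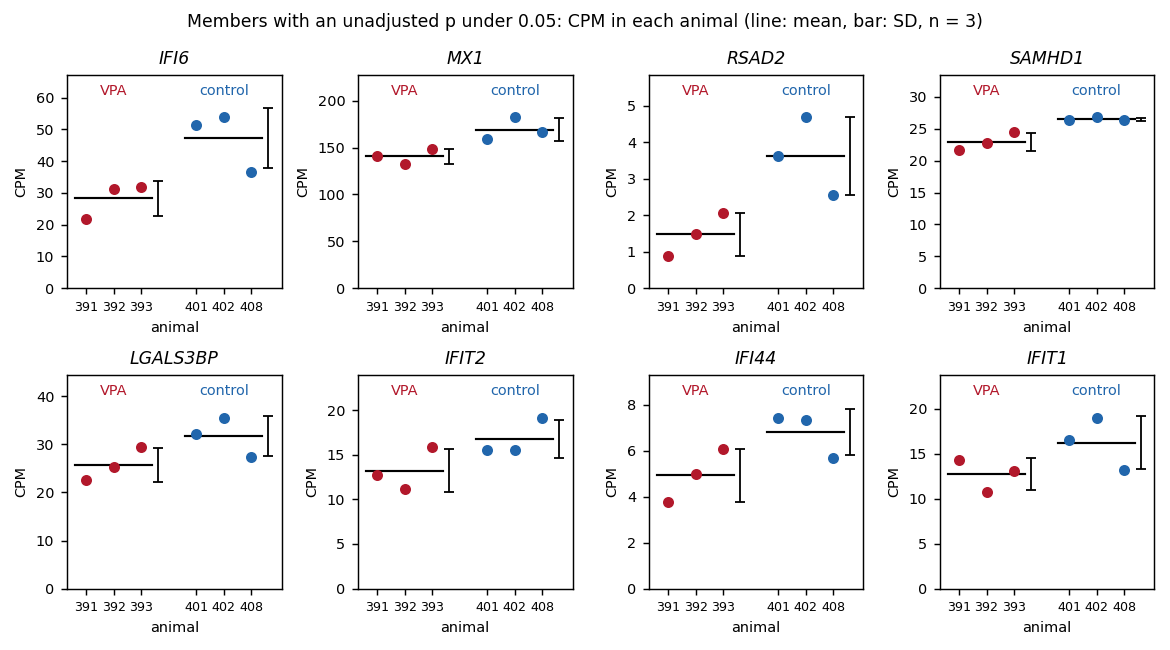
CPM (vertical axes) in each animal (horizontal axes) for the 8 members with an unadjusted p under 0.05; points are libraries, lines group means and bars SD (n = 3). VPA lies below control without overlap in IFI6, MX1, RSAD2 and SAMHD1, and the groups overlap in LGALS3BP, IFIT2, IFI44 and IFIT1.

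For the other 3 effectors at that p the groups overlapped. IFIT1 and IFIT2 encode proteins with tetratricopeptide repeats, IFIT1 being known for binding viral RNA with an uncapped or incompletely capped end. IFIT1 had 14.3, 10.8 and 13.1 CPM in VPA and 16.5, 19.0 and 13.2 CPM in controls (log2 fold change -0.36 ± 0.15, adjusted p = 0.27 in edgeR). Control 408 lay below VPA 391, and without control 402 the value was -0.24. IFIT2 had 12.7, 11.1 and 15.8 CPM in VPA and 15.6, 15.5 and 19.2 CPM in controls (-0.35 ± 0.14, adjusted p = 0.26 in edgeR). Control 408 was the highest library here, in contrast to IFIT1. IFI44 had 3.77, 4.97 and 6.06 CPM in VPA and 7.45, 7.36 and 5.69 CPM in controls (-0.48 ± 0.20, adjusted p = 0.27 in edgeR), and VPA 393 lay above control 408.

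The remaining effectors differed less between groups than between animals. OAS1, which makes the messenger that activates the RNA-cutting enzyme RNase L, had 7.95, 9.39 and 13.7 CPM in VPA and 14.2, 24.2 and 8.13 CPM in controls. The controls spanned a 2.98-fold range that held all VPA libraries but VPA 391. Its log2 fold change of -0.59 ± 0.33 (adjusted p = 0.41 in edgeR) was -0.12 without control 402. MX2, a paralogue of MX1, had 2.21, 2.27 and 3.84 CPM in VPA and 4.67, 4.33 and 1.93 CPM in controls. Control 408 was the lowest of all libraries, while controls 401 and 402 were the highest. The RNA-editing enzyme ADAR was nearly level, between 101 and 111 CPM. The guanylate-binding proteins GBP2 and GBP1 had the only positive fold changes of the effectors, 0.0086 and 0.07. The kinase gene EIF2AK2 (PKR), which halts translation on sensing double-stranded RNA, had 77.3 CPM in VPA 393 and 49.4 to 61.9 CPM in the other 5 libraries. OAS2, of the same enzyme family as OAS1, had a log2 fold change of -0.09. OASL had 0.0614 to 0.334 CPM, at most 6 reads per library.

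The row matched to IFIT5 through a RefSeq synonym, LOC100151816, had 20.2, 17.2 and 22.2 CPM in VPA and 22.7, 22.2 and 25.4 CPM in controls. VPA 393 lay just above control 402 (log2 fold change -0.25, adjusted p = 0.29 in edgeR). Members of the IFIT and MX families resemble each other in sequence, and reads shared between copies cannot be assigned here because the counting is not given.

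Of the ISG15 conjugation and ADP-ribosylation genes, 0 of 7 was called, 6 had a negative fold change and the median was -0.08. USP18, the protease that removes ISG15 and dampens receptor signalling, had 5.86, 8.41 and 7.28 CPM in VPA and 8.28, 9.02 and 6.26 CPM in controls. Each group held low and high animals, and the log2 fold change was -0.14 ± 0.18 (adjusted p = 0.76 in edgeR). DTX3L, the ubiquitin ligase partner of PARP9, had 2.51, 2.52 and 2.502 CPM in VPA and 2.61, 3.50 and 2.33 CPM in controls. The VPA libraries were nearly equal and all lay within the range of the controls. ISG15 itself had 15.7, 20.0 and 17.4 CPM in VPA and 17.6, 19.4 and 18.3 CPM in controls, so both extremes were VPA libraries. UBA7, the enzyme that activates ISG15, had 6.94, 5.59 and 6.45 CPM in VPA and 6.504, 8.78 and 4.10 CPM in controls, which held the highest and the lowest library. PARP14, an ADP-ribosyltransferase, had 9.51, 5.83 and 11.8 CPM in VPA and 10.9, 12.2 and 5.40 CPM in controls. It split both groups: VPA 392 and control 408 were at about the same low level, and the other 4 libraries lay above 9 CPM.

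The antigen processing and presentation genes had 6 of 7 fold changes above 0 and a median of 0.05. None of the 7 was called in edgeR, none had an unadjusted p under 0.05, and the groups overlapped in each of them. PSMB8, a catalytic subunit of the immunoproteasome, had 11.3, 14.4 and 15.6 CPM in VPA and 10.6, 15.8 and 8.42 CPM in controls. Control 402 was the highest and control 408 the lowest library, and the log2 fold change was 0.23 ± 0.21 (adjusted p = 0.63 in edgeR). It was 0.51 without control 402 and 0.05 without control 408. TAPBP encodes tapasin, which holds MHC class I at the peptide transporter. It had 50.2, 52.7 and 55.1 CPM in VPA and 52.4, 51.6 and 43.2 CPM in controls, and control 408 alone stood apart (0.09 ± 0.083, adjusted p = 0.65 in edgeR). The transporter genes TAP1 and TAP2 had log2 fold changes of 0.02 and -0.04, and TAP2 stayed between 18.8 and 20.4 CPM. B2M had 65.7, 91.7 and 85.4 CPM in VPA and 75.4, 82.5 and 77.4 CPM in controls. VPA 391 was its lowest and VPA 392 its highest library. The median of the 7 genes was -0.0029 without VPA 393 and 0.12 without control 402.

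Of the secreted products, LGALS3BP, a glycoprotein that binds galectin-3, had 22.5, 25.2 and 29.5 CPM in VPA and 32.2, 35.6 and 27.5 CPM in controls. Control 408 lay within the VPA range (log2 fold change -0.31 ± 0.12, adjusted p = 0.22 in edgeR). CXCL10, the chemokine that draws activated T cells, had 5.80, 4.67 and 7.34 CPM in VPA and 5.11, 11.7 and 3.53 CPM in controls. The 3 controls held both the highest and the lowest library, a 3.33-fold range. The log2 fold change was -0.20 ± 0.37 (adjusted p = 0.84 in edgeR) and 0.44 without control 402.

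The median spread within groups was wider over the members than over all genes. The SD of log2 CPM among the 3 controls had a median of 0.24 over the members, beside 0.11 over all genes tested, and among the 3 VPA animals 0.17 beside 0.10. The members were also less abundant, with a median of 14.5 CPM beside 25.3 CPM, and the part of abundance in the spread was not tested. At least a 1.5-fold range within the controls was seen in 13 of 43 members (30.2%) beside 15.0% of all genes, and within VPA in 10 (23.3%) beside 13.1%. The range of the controls exceeded the size of the fold change in 37 of 43 members (86.0%) beside 75.3% of all genes. The largest SD within controls belonged to CXCL10 (0.87), OAS1 (0.78), MX2 (0.67), PARP14 (0.62) and UBA7 (0.54). Within VPA it belonged to RSAD2 (0.54), PARP14 (0.51), MX2 (0.42), NLRC5 (0.42) and OAS1 (0.39).

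**Figure D3:**
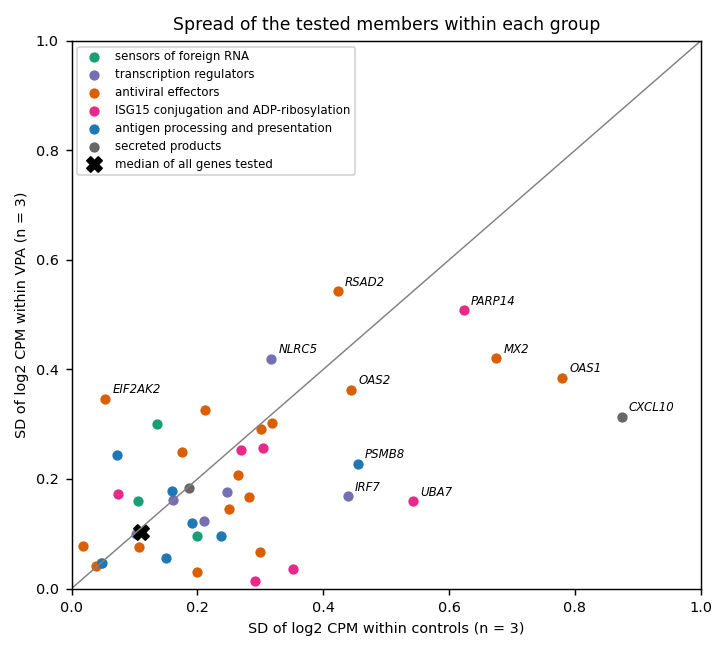
The SD of log2 CPM within the 3 controls (horizontal axis) and within the 3 VPA animals (vertical axis) is shown for each tested member, coloured by role; the cross is the median of all genes tested, and the line marks equal SD. Of the 43 members, 30 lie below the line, with CXCL10, OAS1 and MX2 farthest to the right.

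The same animals were high or low in many members. Control 402 was the highest of the controls in 31 of 43 members (72.1%), beside 33.0% of all genes, and control 408 was the lowest of them in 30 (69.8%), beside 33.8%. In VPA, 393 was the highest in 29 members (67.4%), beside 35.7% of all genes, and 391 the lowest in 23 (53.5%), beside 31.8%. The median deviation of the members from the mean of the controls, in log2 CPM, was 0.17 in control 402, 0.03 in control 401 and -0.21 in control 408. It was -0.15 in VPA 391, -0.15 in VPA 392 and -0.01 in VPA 393, so all VPA libraries lay between the extremes of the controls. Over all genes tested the same median lay between 0.000655 and 0.0085 in every library. The median log2 fold change of the members, -0.08, was -0.03 without control 402, -0.18 without control 408 and -0.17 without VPA 393. The number of members with a negative fold change, 31, was 23 without control 402 and 35 without control 408.

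**Figure D4:**
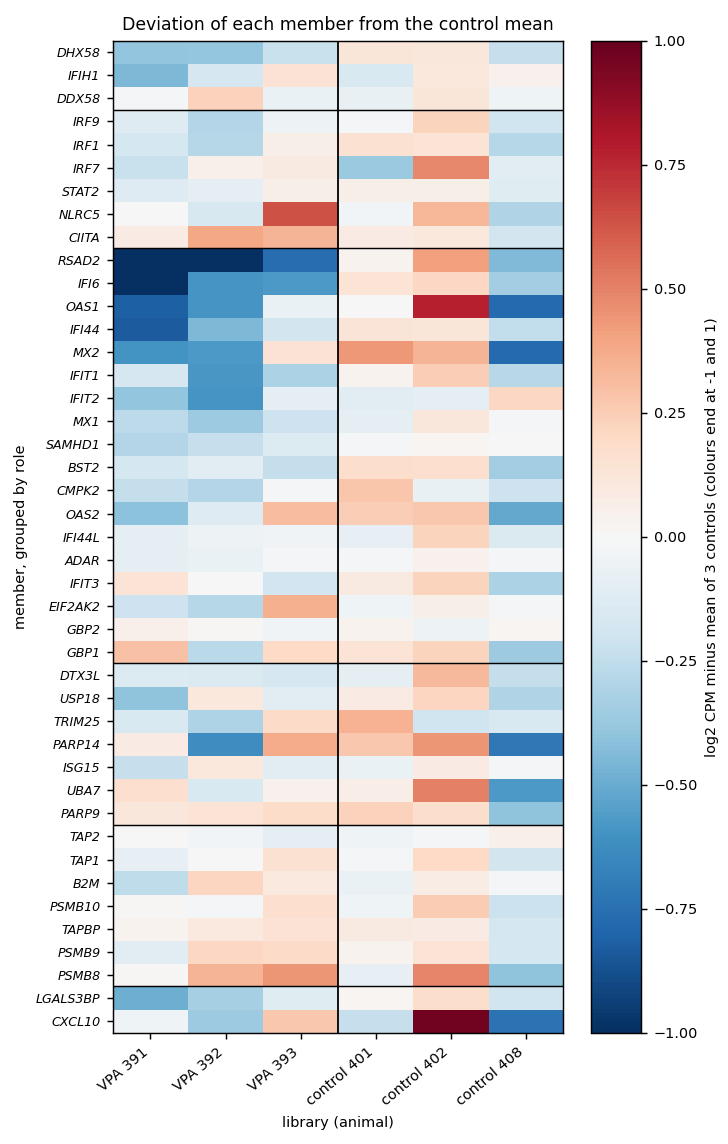
Each row is a tested member, grouped by role, and each column a library; colour is the log2 CPM minus the mean of the 3 controls, blue below and red above it. The column of control 408 is mostly blue and that of control 402 mostly red, and RSAD2 and IFI6 are blue in all 3 VPA columns.

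The roles differed in how they followed this pattern. The antiviral effectors had a median deviation of -0.25 in VPA 391, -0.29 in VPA 392 and -0.08 in VPA 393, beside -0.26 in control 408 and 0.19 in control 402. The antigen presentation genes had 0.0024 in VPA 391, 0.10 in VPA 392 and 0.15 in VPA 393, beside -0.17 in control 408 and 0.14 in control 402. In control 408 both roles were thus below the control mean, and in the VPA libraries the effectors lay below and the presentation genes at or above it. The difference between the roles was not tested.

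**Figure D5:**
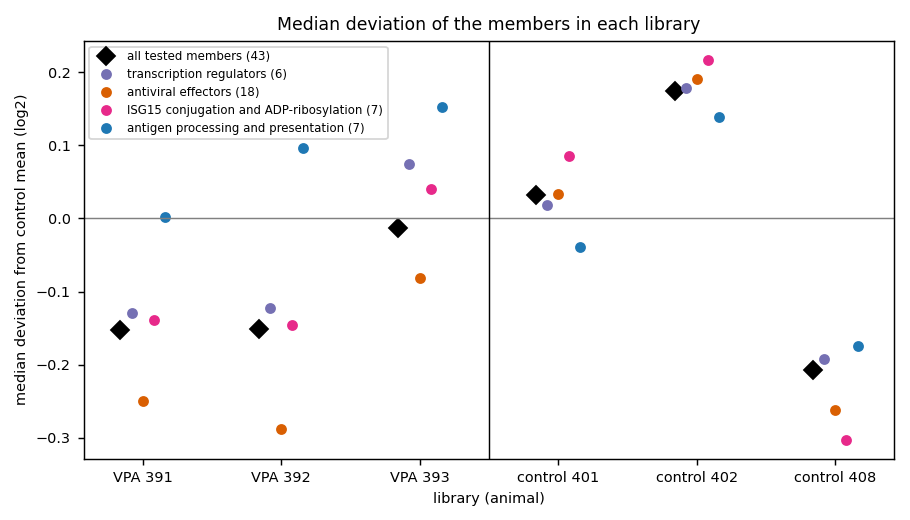
The median deviation from the control mean in log2 CPM (vertical axis) is given for each library (horizontal axis), over all 43 tested members (diamonds) and over the 4 roles with at least 6 tested genes (dots). Control 402 lies highest and control 408 lowest for all members, and the antigen presentation genes are the highest role in each VPA library.

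Other measures differed between these libraries too. Microglia markers summed to 544 CPM over 17 genes in control 408, beside 665 and 666 CPM in controls 401 and 402 and 649 to 683 CPM in VPA, and control 408 was also the lowest control for most members. The haemoglobin gene HBB, a marker of blood, had 123, 199 and 191 CPM in VPA and 23.1, 202 and 46.4 CPM in controls. Control 402 was the highest control for HBB, as for most members, while 401 was the lowest and 408 lay between them. All VPA libraries lay above controls 401 and 408 in HBB. The median deviation of the members was -0.15, -0.15 and -0.01 in VPA 391, 392 and 393, beside 0.03 in control 401 and -0.21 in control 408. Blood leukocyte markers summed to 25.5, 35.6 and 34.6 CPM over 14 genes in VPA and 26.7, 29.8 and 25.2 CPM in controls. PTPRC alone had 15.2 to 21.1 CPM, and each other leukocyte marker at most 2.52 CPM in any library. Of the 9 leukocyte markers that were tested, 8 had a positive fold change (median log2 fold change 0.57) and 0 an unadjusted p under 0.05. Of the other 5, MS4A1 was at 0 in control 408 and S100A12 in VPA 391 and 393. EIF1AY, a Y-linked gene, had 450 to 548 reads in 4 libraries, 0 in VPA 392 and 2 in control 401. With its presence as a covariate 0 members were called in edgeR. Between the groups, neuron markers summed to 5616 to 5740 CPM in VPA and 6059 to 6228 CPM in controls, and 3 of the 5 genes had every VPA library below every control (9.07% of all genes), while GAD1 had every VPA library above every control (12.1% of all genes). Oligodendrocyte markers summed to 15634 to 17737 CPM over 7 genes in VPA and 12051 to 16274 CPM in controls, and 5 of the 7 had every VPA library above every control. Astrocyte markers summed to 6361 to 7764 CPM over 6 genes in VPA and 6203 to 7043 CPM in controls, and 2 of the 6, SLC1A3 and ALDH1L1, had every VPA library above every control. Of the 17 microglia markers, 2 did. Endothelial markers summed to 539 to 640 CPM over 12 genes in VPA and 548 to 593 CPM in controls. The part of these cell types, or of blood, in the values of the members was not tested.

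Members that lie side by side in RefSeq's gene table for Sscrofa11.1 often had fold changes of unlike size. RSAD2 and CMPK2, which lie next to each other and act in 1 nucleotide pathway, had log2 fold changes of -1.30 and -0.19. OAS2 and OAS1 had -0.09 and -0.59, although control 402 was the highest and control 408 the lowest control in both. In the run of IFIT2, IFIT3 and IFIT1 the values were -0.35, -0.03 and -0.36. IFI44 and IFI44L had -0.48 and -0.07, and in the run of TAP2, PSMB8, TAP1 and PSMB9 the values were -0.04, 0.23, 0.02 and 0.10. These differences between neighbours were not tested.

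The other genes of the pathway gave no call in the main edgeR test either. Of 94 genes in 5 lists (ligands and receptors, JAK and STAT proteins, upstream sensors and adaptors, further interferon-stimulated genes, and MHC molecules with their helpers), 81 had a row and 78 were tested. In edgeR 0 were called and 13 (16.7%) had an unadjusted p under 0.05, 6 higher and 7 lower in VPA, close to the 16.2% of all genes. The lists were unlike in this, as 8 of the 13 were among the 25 MHC genes and helpers. Among the genes named below, TYK2 was called in 3 of 15 alternatives, DESeq2 among them. The median log2 fold change was -0.04.

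Of the ligands, IFNG had at most 0.167 CPM and IFNE at most 0.0614 CPM in any library. Of the receptors, 0 of 6 tested was called. IFNAR1, a chain of the type I receptor, had 99.0, 92.0 and 96.3 CPM in VPA and 101, 92.9 and 105 CPM in controls. IFNGR1, a chain of the interferon gamma receptor, had 49.7, 47.3 and 45.0 CPM in VPA and 53.3, 49.8 and 53.3 CPM in controls (log2 fold change -0.15 ± 0.071, adjusted p = 0.32 in edgeR). The lowest control and the highest VPA library of IFNGR1 were almost equal.

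TYK2, a kinase bound to the type I receptor, had 40.0005, 41.4 and 43.1 CPM in VPA and 33.4, 28.8 and 31.5 CPM in controls. All VPA libraries lay above all controls, a pattern found in 12.1% of all genes and opposite to the antiviral effectors with groups apart. The log2 fold change was 0.40 ± 0.078 (adjusted p = 0.062 in edgeR and 0.0076 in DESeq2).

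Of the upstream genes, TBK1, the kinase that activates interferon gene transcription, had 42.1, 41.5 and 43.6 CPM in VPA and 45.9, 45.7 and 51.3 CPM in controls (-0.18 ± 0.074, adjusted p = 0.26 in edgeR). The groups did not overlap, with VPA lower, a pattern found in 9.07% of all genes. Of the 13 upstream genes tested, 2 (TBK1 and TICAM1) had every VPA library below every control. Another 2 (TLR9 and MAVS) had every VPA library above every control, as 12.1% of all genes did. The DNA sensor cGAS, listed as MB21D1, had 0.598, 0.737 and 0.834 CPM in VPA and 1.001, 0.297 and 0.398 CPM in controls. Its adaptor STING, listed as TMEM173, had 1.73, 2.09 and 2.002 CPM in VPA and 3.34, 2.31 and 1.54 CPM in controls. For both the highest library was control 401.

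Of the further interferon-stimulated genes, 0 of 24 tested was called, 14 had a negative fold change and the median was -0.07. IFITM3, which blocks virus entry at the endosome, had 20.7, 22.5 and 27.5 CPM in VPA and 30.5, 33.9 and 26.7 CPM in controls (-0.38 ± 0.12, adjusted p = 0.16 in edgeR). As for DHX58, IFI44 and LGALS3BP, the groups overlapped only through VPA 393 and control 408. The median deviation of these 24 genes was 0.15 in control 402 and -0.14 in control 408.

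The 25 MHC genes and helpers had 12 negative and 13 positive fold changes and a median of 0.06, with 0 called in edgeR. An unadjusted p under 0.05 in edgeR was reached by 8 of 25 (32%), beside 16.2% of all genes. Of these, 4 were higher and 4 lower in VPA. Every VPA library lay above every control in 5 genes and below in 2, patterns found in 12.1% and 9.07% of all genes. RFXAP, part of the factor that drives MHC class II genes, had 41.7, 43.5 and 40.1 CPM in VPA and 47.2, 48.6 and 49.3 CPM in controls. The groups did not overlap (-0.22 ± 0.069, adjusted p = 0.15 in edgeR). RFX5, by contrast, had every VPA library above every control (log2 fold change 0.12), and for RFXANK the groups overlapped (0.06). The class I genes SLA-1 and SLA-3, named here after their values were seen, differed widely between animals. SLA-1 had 20.5, 31.7 and 74.7 CPM in VPA and 64.2, 111 and 76.4 CPM in controls. SLA-3 had 84.3, 119 and 80.1 CPM in VPA and 64.4, 27.2 and 5.29 CPM in controls. Class I genes such as SLA-1 and SLA-3 resemble each other closely and are highly polymorphic. Reads of 1 allele may therefore be counted under another gene, and the values of these genes are uncertain.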

How the data were processed

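RNA from prefrontal cortex of 3 VPA and 3 control pigs was measured. Per the labels' protocols, TRIzol was used to extract total RNA and the VAHTS Universal V6 kit to make libraries. No coordinates are printed, with the aligner, counter, strandedness, build and annotation not given in the sources used here. For each library the authors deposited a raw count and an FPKM value per gene, per the file names. From the values, FPKM was the count scaled by the library total and by 1 length per gene in 100% of 97071 nonzero values (relative tolerance 0.001), so both hold the same measurement.

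CPM used the total of each file. Counts were tested in R 4.3.3 with edgeR 4.0.16 (filterByExpr, TMM factors from 0.993 to 1.01, glmQLFit and glmQLFTest with no covariate, Benjamini-Hochberg over all 14373 genes tested, threshold 0.05). Standard errors were derived from the F statistic, and printed log2 CPM used a prior count of 2. The fit had 4 residual degrees of freedom and a common biological coefficient of variation of 9.01%. An exact permutation test of 3 against 3 animals could not go below p = 0.1 (two-sided) and was not used. The functions were tested on simulated data. A first bound on false calls, set for every tool, was exceeded by DESeq2, and was then kept for edgeR only; in these simulations the false share of calls was above the nominal one for edgeR, DESeq2 and limma-voom alike. Every pair of libraries differed by more than sampling noise (chi-square per degree of freedom 5.74 to 12.8 over 15 pairs).

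The members and all lists were chosen with earlier results of these data known. Genes given in every library were those with an unadjusted p under 0.05, the 2 lowest p of each role, the 5 largest SD within each group, the lowest p of each pathway list, and IFNAR1, MB21D1 and TMEM173, with 1 gene that the rule selects not reported here; the others are given by ranges or as neighbours. ISG15, B2M, LOC100151816, SLA-1, SLA-3, HBB and TTR were given in every library outside that rule, after their values were seen. RFX5, RFXANK, TICAM1, TLR9, MAVS, AQP1, FOLR1 and PTPRC were also named after their values were seen. A planned search of member promoters for motifs was not run, as no promoter sequences were used here. Alternatives were other scaling, other filters, DESeq2 1.42.0, limma 3.58.1 (voom) and leaving out each library. EIF1AY as a covariate and another DESeq2 filter setting were added after the data had been seen.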

Additional observations from a re-analysis of the deposited data

How the results depend on the processing

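The 52 called genes became 141 with no filter on low counts, 444 with DESeq2 defaults, 30 with limma-voom, and 0 to 66 with 1 library left out (0 without VPA 391 or VPA 392, 66 without control 401). DESeq2 was first run with its filtering set for 0.05, and its defaults, as first intended, replaced that setting after its calls had been seen. The first setting is kept as an alternative added after seeing the data: 435 genes (3.14%) and 3 members were called (IFI6, MX1 and RSAD2). The members called, 0 in the main edgeR test, were 1 with no filter (IFI6, beside 0.82% of all genes) and 2 with DESeq2 defaults (IFI6 and MX1, beside 3.64%). They stayed 0 with each library left out, with limma-voom and with EIF1AY as a covariate, where 76 genes were called. DESeq2 gave RSAD2 no adjusted p under its defaults. Of 31 named genes, 26 kept their direction in every alternative. The other 5 changed sign with 1 library left out, where the log2 fold change ran from -0.29 to 0.0039 in DTX3L, -0.51 to 0.44 in CXCL10, -0.36 to 0.16 in PARP14, -0.28 to 0.24 in UBA7 and -0.096 to 0.37 in NLRC5; UBA7 was also 0.027 by limma-voom. The median of the antiviral effectors ran from -0.29 to -0.15 with 1 library left out, with 13 to 17 of them negative. The median of the antigen presentation genes ran from -0.0029 to 0.12. No paired analysis was possible because the groups share no animal numbers. With 3 animals per group, a member whose difference did not pass the threshold is not shown to be equal between groups.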
